A study of Mus musculus with 9 samples.

Results

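Neurons were compared with differentiating progenitors of the embryonic mouse cortex, across every gene of the deposited expression table. The comparison used 6 of the 9 libraries in the series, 3 per population. The other 3, from proliferating progenitors, served as a reference level, in the estimate of the spread and in the filter on low values. Of 21210 genes in the table, 15828 reached a normalised count of at least 10 in at least 3 of the 9 libraries and were tested. All libraries came from the lateral cortex of C57BL/6 embryos at embryonic day 14.5. The cells carried fluorescent reporters for Btg2 and Tubb3, were freed with papain once meninges and ganglionic eminences had been taken away, and were sorted by colour. Differentiating progenitors are the Btg2-positive cells, neurons the Tubb3-positive cells, and proliferating progenitors the Btg2-negative cells. Below, progenitors without further name are the differentiating ones. Sample titles give red fluorescence for the Btg2 gate whereas the genotype field, shared by all groups, reads Btg2GFP/Tubb3GFP. Each library was made from poly-A RNA of a pool of embryos from several litters, so the replicates are separate pools and the spread between single embryos was not measured.

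In the developing cortex, radial glia lining the ventricle divide and give rise to intermediate progenitors, which divide again and produce neurons. Btg2, an antiproliferative gene, is switched on in progenitors that will make neurons at their next division, and Tubb3 encodes a beta-tubulin of young neurons. A newborn neuron leaves the cell cycle, stops Notch signalling, migrates outwards, extends an axon and begins to make the machinery of excitability and synapses.

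Both genes of the sort differed in the direction of their labels. Btg2 stood at 14022, 14635 and 19983 in progenitor libraries against 3299, 2645 and 3390 in neuron libraries, and the groups did not overlap (log2 change -2.37 ± 0.17, adjusted p = 2.88e-06). Tubb3 stood at 10937, 13097 and 9711 in progenitor libraries against 50230, 48666 and 39932 in neuron libraries, again without overlap (log2 change 2.04 ± 0.25, adjusted p = 0.000105). All changes given here are neurons minus differentiating progenitors on the scale of log2(normalised count + 1), with the standard error and the Benjamini-Hochberg adjusted p of limma over all tested genes, and the scale understates the change of genes with low values. Of 6 markers of young neurons, Tubb3 is a gene of the sort, and Dcx, Mtap2 (MAP2), Mapt and Stmn2 were higher in the neuron libraries. Rbfox3 (NeuN), listed as D11Bwg0517e, did not pass the test at 2834 ± 507 and 3330 ± 329.9 (mean ± SD, n = 3 libraries, progenitors first). Of 5 markers of intermediate progenitors, Btg2 is the gene of the sort, and Eomes, Neurog2, Insm1 and Gadd45g were higher in the differentiating progenitors. The longer list for these cells, given below, was divided. In bulk libraries, fewer cells that express a gene and less RNA of it per cell cannot be told apart, and this holds for every difference below.

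The normalised counts of the 6 libraries summed to 18420135, 19077173 and 18608105 for progenitors and to 21598907, 22076409 and 21442620 for neurons. Libraries of replicate 1 stood apart from the other replicates in all groups along the second principal component, which held 11.6% of the variance against 75.1% for the first. Processed pseudogenes took 2.24% of the total in replicate 1 of the progenitors and 1.71% in replicate 1 of the neurons, against 0.457% to 0.618% in the other 4 libraries. Counts of changed genes are therefore also given for replicates 2 and 3 alone.

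Of the 15828 genes tested, 8551 (54%) passed an adjusted p of 0.05: 4368 were higher in neurons (27.6%) and 4183 were lower (26.4%). At least 2-fold differences were found for 2392 genes that were higher and 2517 that were lower, which is 15.1% and 15.9% of the genes tested. With replicates 2 and 3 alone, 4857 genes were higher and 4703 lower. Genes higher in neurons held 26.9% of the summed normalised counts of differentiating progenitors and 50.1% of those of neurons. Genes lower in neurons went from 30.5% to 13.1% of the sum. When every library was instead scaled to the same sum, the median log2 change of all genes moved by -0.21, and the split became 3383 higher and 5588 lower, so the share of calls that were higher went from 51.1% to 37.7%. The remaining 7277 genes are not shown to be alike in the 2 populations. Over all genes tested, called ones included, the 95% interval of the log2 change lay within 0.5 of no change for 2412 (15.2%).

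**Figure D1:**
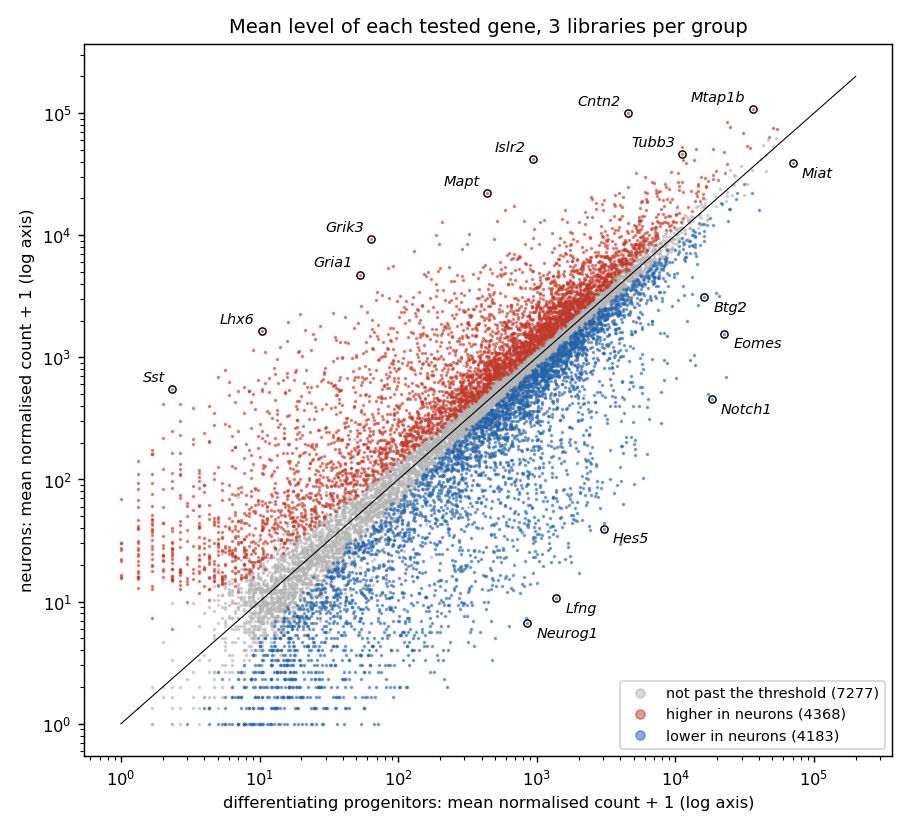
Mean normalised count plus 1 of each tested gene in differentiating progenitors (horizontal log axis) and neurons (vertical log axis), 3 libraries per group, with the line of equal levels. Of the tested genes, 4368 lie above the threshold towards neurons (red), 4183 towards progenitors (blue) and 7277 did not pass it (grey).

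In absolute terms the largest gains were in genes of the growing axon and its cytoskeleton. Cntn2 (also called TAG-1), a cell adhesion molecule of growing cortical axons, stood at 3434, 5158 and 4982 in progenitor libraries against 103246, 99412 and 98492 in neuron libraries (log2 change 4.49 ± 0.46, adjusted p = 3.07e-05). Mtap1b, the microtubule-associated protein MAP1B of growing axons, had the highest mean in neurons, at 108250 ± 18236 against 36119 ± 9519 (mean ± SD, n = 3 libraries) in progenitors. The other genes of this rank were the alpha-tubulin Tuba1a (1.85), the beta-tubulin Tubb2b (1.64), the collapsin response mediator Dpysl3 (2.23) and Islr2, a membrane protein needed for axon extension (5.47), each given by its log2 change. Islr2 was low in every progenitor library, with 919, 936 and 960, and reached 51586, 37793 and 37220 in neurons. Per kilobase of transcript, the neuron libraries held 51260 of Tuba1a, 40210 of Tubb2b and 10530 of Cntn2 as mean normalised counts.

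The largest losses in absolute terms were of another kind. The long non-coding RNA Miat had the highest mean of all genes in differentiating progenitors among those that fell, at 71571, 60619 and 79465 in progenitor libraries against 45013, 34037 and 37327 in neuron libraries (log2 change -0.86 ± 0.18, adjusted p = 0.0031), and still stood above its level of 19611 in proliferating progenitors. The next were the planar polarity cadherin Celsr1, the ubiquitin ligase Nedd4, the proliferation marker Mki67, the T-box factor Eomes of intermediate progenitors and the receptor Notch1. Eomes stood at 19440, 24416 and 23584 in progenitor libraries against 2276, 996 and 1409 in neuron libraries (log2 change -3.92 ± 0.29, adjusted p = 3.37e-06) without overlap. Notch1 stood at 21092, 17387 and 16551 in progenitor libraries against 674, 374 and 308 in neuron libraries (log2 change -5.41 ± 0.25, adjusted p = 2.37e-07).

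Measured on the log2 scale, among genes with a mean of at least 200 in one of the groups, the 10 largest rises were Sst, Rasgrf1, Lhx6, Gpr22, Hs3st4, Grik3, Tnr, Cntnap3, Sncb and Lrfn5. They lie between 7.08 and 7.87. Grik3, a subunit of kainate-type glutamate receptors, was by far the most abundant of them, at 64, 76 and 49 in progenitor libraries against 9521, 9655 and 8694 in neuron libraries (log2 change 7.20 ± 0.55, adjusted p = 4.39e-06). Sst, the neuropeptide somatostatin, and Lhx6, a transcription factor, are markers of cortical interneurons and are taken up with the other interneuron genes below. The 10 largest falls were Neurog1, Zfp36l1, Lfng, Lamb2, Mybpc1, Mlc1, S1pr1, 2810459M11Rik, Alpl and Prelp, between -7.17 and -6.51. Neurog1, a proneural transcription factor, stood at 861, 847 and 854 in progenitor libraries against 9, 6 and 2 in neuron libraries (log2 change -7.17 ± 0.40, adjusted p = 6.36e-07). Zfp36l1, an RNA-binding protein that promotes mRNA decay, stood at 5666, 2937 and 3287 in progenitor libraries against 34, 34 and 18 in neuron libraries (log2 change -7.06 ± 0.29, adjusted p = 1.36e-07), with replicate 1 the highest of the progenitor libraries. Mybpc1 and Prelp had been low in proliferating progenitors too (46 and 51.7), so their 224 and 349 in differentiating progenitors were peaks between low levels on both sides.

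**Figure D2:**
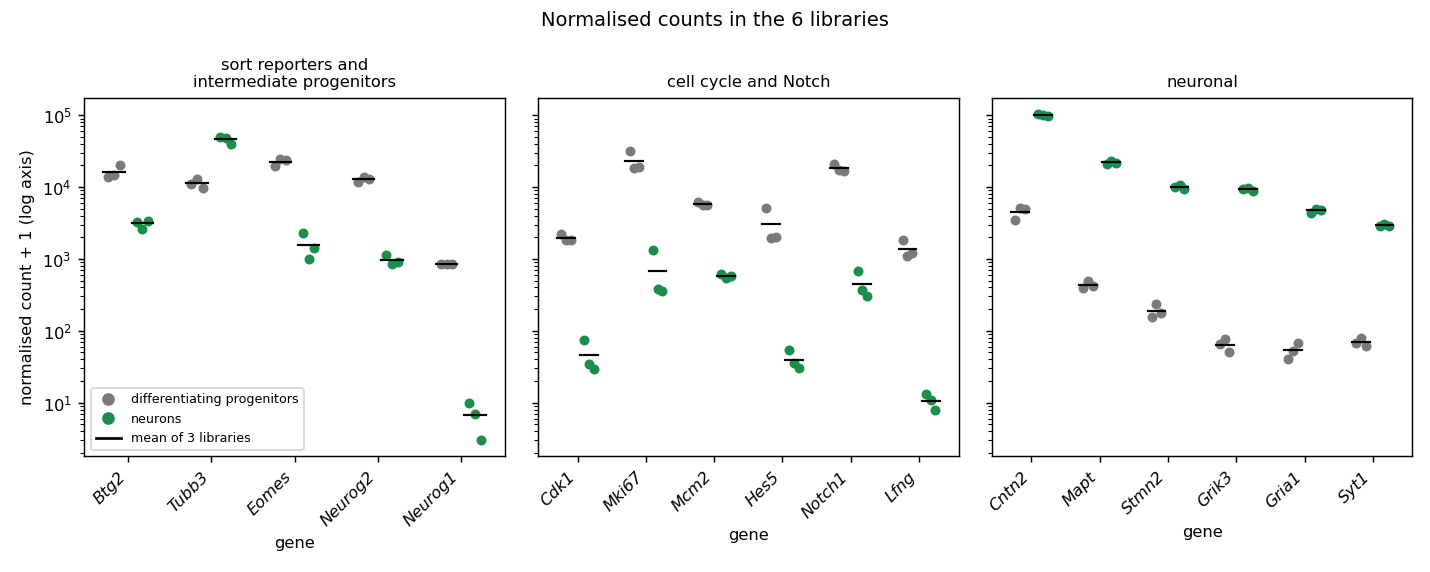
Normalised count plus 1 (log axis) of 17 genes in the 3 libraries of differentiating progenitors (grey) and of neurons (green), with black bars at the group means. No gene shown overlaps between groups.

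A class of genes was near absent in one population and present in the other. With a group mean under 10 on one side and at least 100 on the other, 82 genes were near absent in progenitors and present in neurons, and 117 the reverse, all without overlap. Among the genes switched on that reached 200 were the metabotropic glutamate receptors Grm2 and Grm5, the GABA-B receptor subunit Gabbr2, the calcium-activated potassium channel Kcnma1, the calcium channel Cacna1i, the muscarinic receptor Chrm1, the dopamine receptor Drd1a and the melanocortin receptor Mc4r. Gabbr2 stood at 6, 7 and 7 in progenitor libraries against 522, 647 and 546 in neuron libraries, and Grm5 at 9, 5 and 8 in progenitor libraries against 535, 564 and 501 in neuron libraries. Rph3a, a Rab3 effector on synaptic vesicles, stood at 5, 7 and 12 in progenitor libraries against 862, 1309 and 1305 in neuron libraries. In progenitor libraries these 3 genes stood at 12 or less. Crym, a thyroid hormone binding protein found in deep-layer neurons, stood at 2, 2 and 1 in progenitor libraries against 205, 423 and 279 in neuron libraries, and Tubg2, the second gamma-tubulin gene, at 7, 10 and 10 in progenitor libraries against 215, 316 and 324 in neuron libraries.

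Genes switched off that had reached 200 in differentiating progenitors included Lfng, S1pr1, Mlc1, Hmga2, Hopx, Metrn, Acsbg1 and Mt2, all of which were higher still in proliferating progenitors, and a set that was not: Wnt8b, Rspo1, Sema3g, Prelp, Mybpc1 and Neurog1. Wnt8b, a Wnt ligand of the cortical hem, went from 33.3 in proliferating progenitors to 469 ± 50.8 in differentiating progenitors and 6 ± 1 in neurons. Rspo1, a secreted enhancer of Wnt signalling, followed the same course with 21.3, 228 ± 22.1 and 5.33 ± 3.06. The chromatin protein Hmga2, which declines as cortical progenitors age, went from 1180 through 314 ± 83.4 to 6.67 ± 0.577. Also switched off were the collagens Col4a6, Col22a1 and Col27a1, the matrix gene Hmcn1, the protease Adamts9 and the fibronectin receptor subunit Itga5. Where the limits were set at under 20 and at least 100, the classes held 170 and 218 genes, and at under 10 and at least 50 they held 147 and 225.

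Cell cycle genes fell throughout both lists tested. All 70 tested genes of the list for G2 phase and mitosis were lower in neurons, with a median log2 change of -4.73 against -0.01 over all genes tested, and their summed normalised counts ranged over 190203 to 231196 in progenitor and 13329 to 16856 in neuron libraries. All 55 tested genes for the G1 to S transition and DNA replication were lower as well, with a median of -2.86. Cdk1, the kinase that drives entry into mitosis, stood at 2217, 1851 and 1810 in progenitor libraries against 74, 33 and 28 in neuron libraries (log2 change -5.54 ± 0.31, adjusted p = 6.56e-07). Racgap1, a regulator of cytokinesis with the smallest adjusted p of the mitosis list, stood at 5432, 4469 and 4946 in progenitor libraries against 629, 542 and 580 in neuron libraries (log2 change -3.08 ± 0.10, adjusted p = 5.41e-08). Mcm2, a subunit of the replicative helicase, stood at 6180, 5541 and 5571 in progenitor libraries against 608, 549 and 569 in neuron libraries (log2 change -3.32 ± 0.08, adjusted p = 4.22e-08). In each of these the neuron libraries sat far below every progenitor library. Mki67 stood at 31857, 18175 and 19088 in progenitor libraries against 1317, 377 and 357 in neuron libraries, with replicate 1 the highest library in both groups (log2 change -5.31 ± 0.46, adjusted p = 1.03e-05). Smaller falls within the lists were those of the spindle checkpoint protein Bub3 (-0.81), the origin protein Orc6 (-0.46) and the clamp loader subunits Rfc2 and Rfc3 (-0.80 and -0.93). The G1 cyclins Ccnd1 (-4.76), Ccnd2 (-2.72), Ccne1 (-3.28) and Ccne2 (-3.48) were lower, although Ccnd2 still stood at 3205 ± 1451 in neurons.

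Genes that restrain the cell cycle mostly fell or did not pass the test. Of 21 tested CDK inhibitors and antiproliferative genes, 11 were lower in neurons and 1, Ccng1 (0.69), was higher (2 were higher with a replicate block, that is, with the replicate number as a term of the fit, and with replicates 2 and 3 alone). The p18 inhibitor Cdkn2c fell by 5.51 on the log2 scale and Rbl1, the pocket protein p107, by 2.84. Cdkn1c (p57), a CDK inhibitor of cells leaving the cycle, stood at 1791, 1689 and 1730 in progenitor libraries against 2057, 1528 and 1856 in neuron libraries, and the 95% interval of its log2 change ran from -0.28 to 0.39. Rb1, the retinoblastoma protein, did not pass the test either (0.06, 95% interval -0.33 to 0.45).

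Promoters of mitosis genes are known to carry the cell cycle genes homology region (CHR, TTTGAA), bound by the DREAM and MuvB complexes, together with CCAAT boxes bound by NF-Y. Stretches of 150 bases directly upstream of the start of Cdk1, Cdc20, an activator of the anaphase-promoting complex, and Top2a, a DNA topoisomerase, are shown because these genes fell and hold both elements. They were read from RefSeq's promoter table for GRCm38.p6, run 5′ to 3′ towards the gene start, and carry matches to TTTGAA or CCAAT on either strand (TTCAAA and ATTGG on the other) in capitals.
Cdk1 (chr10:69352913-69353062, minus strand): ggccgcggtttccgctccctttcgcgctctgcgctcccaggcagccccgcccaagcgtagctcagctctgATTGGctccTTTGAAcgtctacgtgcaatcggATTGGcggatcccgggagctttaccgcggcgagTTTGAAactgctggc
Cdc20 (chr4:118437344-118437493, minus strand): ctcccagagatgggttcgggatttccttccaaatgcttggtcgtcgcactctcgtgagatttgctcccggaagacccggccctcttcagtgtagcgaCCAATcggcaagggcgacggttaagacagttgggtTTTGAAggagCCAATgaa
Top2a (chr11:99024190-99024339, minus strand): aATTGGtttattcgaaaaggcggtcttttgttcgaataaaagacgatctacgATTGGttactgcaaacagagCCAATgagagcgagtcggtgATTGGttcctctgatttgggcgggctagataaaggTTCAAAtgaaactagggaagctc
Top2a stood at 17394, 16780 and 17420 in progenitor libraries against 786, 396 and 305 in neuron libraries and Cdc20 at 3038, 2326 and 2600 in progenitor libraries against 148, 123 and 110 in neuron libraries, so these genes fell along with Cdk1 (-5.23 and -4.38 on the log2 scale). Over the 250 bases upstream of the start, 21 of the 64 windows of 60 of the 70 mitosis genes (Ccna2, Kif20a, Cdc25c and Aurkb are among those with none) held both elements (32.8%), against 5.55% of all 32851 windows of the table. TTTGAA alone was found in 37.5% of the mitosis windows and 16% of all windows, and CCAAT in 70.3% and 33.8%. In the windows of the replication genes TTTGAA was found in 12.2% and CCAAT in 63.3%. A match is a run of letters and no measurement of binding, and the printed matches do not overlap each other.

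Radial glia genes fell nearly as a block. Of 35 tested markers, 33 were lower in neurons and 1 was higher, with a median log2 change of -3.63. Pax6, the transcription factor of cortical radial glia, stood at 6563, 6176 and 6217 in progenitor libraries against 518, 477 and 378 in neuron libraries (log2 change -3.80 ± 0.12, adjusted p = 5.05e-08). Aldoc, a glycolytic enzyme of glia, stood at 5180, 3921 and 3423 in progenitor libraries against 57, 69 and 61 in neuron libraries (log2 change -6.03 ± 0.17, adjusted p = 4.7e-08), and Mfge8, a secreted glycoprotein of neural stem cells, fell by 5.82 on the log2 scale. Falls of Vim (-2.53) and Slc1a3 (-2.70) were smaller, and those of Lhx2 (-1.29) and the growth factor Ptn (-1.25) smaller again. The exception was Ptprz1, a receptor phosphatase, at 6319, 5155 and 4385 in progenitor libraries against 9192, 12882 and 10736 in neuron libraries (log2 change 1.05 ± 0.16, adjusted p = 0.000489). Pla2g7 did not pass the test (0.04, 95% interval -0.56 to 0.65).

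Intermediate progenitor genes divided. Of 25 tested, 16 were lower and 4 higher, with a median of -1.02. Neurog2, the proneural factor that starts neuron production, stood at 11775, 13811 and 12947 in progenitor libraries against 1116, 848 and 893 in neuron libraries (log2 change -3.76 ± 0.14, adjusted p = 9.27e-08). The chromatin remodeller Chd7 stood at 11433, 12322 and 12909 in progenitor libraries against 2122, 1886 and 1948 in neuron libraries (log2 change -2.62 ± 0.08, adjusted p = 5.01e-08), and Neurod4 fell by 5.97 on the log2 scale. By contrast, the later bHLH genes Neurod1 and Nhlh1 did not pass the test: Neurod1 stood at 2624 ± 232 and 3208 ± 904 (95% interval of the log2 change -0.54 to 1.06) and Nhlh1 at 2241 ± 126 and 2142 ± 492 (-0.87 to 0.69). Pdzrn3, a ubiquitin ligase, was higher in neurons at 563, 888 and 603 in progenitor libraries against 2240, 2619 and 1940 in neuron libraries (log2 change 1.74 ± 0.18, adjusted p = 3.71e-05). Insm1, a zinc finger factor of basal progenitors, fell by only 0.75.

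Most genes of the signalling pathways that maintain progenitors were lower, with exceptions among ligands. In the Notch pathway 23 of 34 tested genes were lower and 6 higher, with a median of -1.08. Among receptors, Notch2 (-3.87) and Notch3 (-5.53) fell with Notch1. Among targets, Hes5 stood at 5102, 1978 and 2048 in progenitor libraries against 53, 34 and 29 in neuron libraries (log2 change -6.16 ± 0.42, adjusted p = 2.18e-06) and Hes1 at 1307, 761 and 942 in progenitor libraries against 14, 14 and 12 in neuron libraries (log2 change -6.10 ± 0.20, adjusted p = 6.18e-08). Lfng, the fringe glycosyltransferase that modifies Notch, stood at 1814, 1102 and 1221 in progenitor libraries against 12, 10 and 7 in neuron libraries (log2 change -7.01 ± 0.22, adjusted p = 5.4e-08). For all of these the neuron libraries lay far below the lowest progenitor library. The ligand Dll1 fell less (-0.96), whereas the ligand Jag2 (2.44), the ligand-like Dner (3.75) and the modulator Dtx1 (2.69) were higher in neurons. Dner stood at 251, 291 and 215 in progenitor libraries against 3190, 3540 and 3431 in neuron libraries (log2 change 3.75 ± 0.13, adjusted p = 7.03e-08). The ligand Jag1 (-0.23) and the protease Adam10 (0.03), which cleaves Notch, did not pass the test, but Jag1 was called lower with libraries scaled to the same sum (adjusted p = 0.0237).

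RBPJ, the DNA-binding partner of the cleaved Notch receptor, recognises GTGGGAA. The 250 bases upstream of Hes5 and the 150 upstream of Lfng are shown because both genes were among the largest falls of the Notch list and hold this run on one or the other strand (TTCCCAC on the other), in capitals below.
Hes5 (chr4:154960673-154960922, plus strand): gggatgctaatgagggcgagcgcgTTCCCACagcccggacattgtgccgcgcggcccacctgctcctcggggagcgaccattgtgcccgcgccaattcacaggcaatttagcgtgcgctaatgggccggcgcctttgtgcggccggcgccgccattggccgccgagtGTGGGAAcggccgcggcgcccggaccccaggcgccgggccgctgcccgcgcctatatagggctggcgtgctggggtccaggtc
Lfng (chr5:140607191-140607340, plus strand): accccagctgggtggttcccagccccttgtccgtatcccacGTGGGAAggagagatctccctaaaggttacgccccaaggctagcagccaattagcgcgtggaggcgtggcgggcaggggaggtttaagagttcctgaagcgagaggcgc
Over the upstream 250 bases the run was found in 4 of 33 windows of 26 of the 34 Notch genes (12.1%) and in 5.42% of all windows. Hes1 and Hey1 have no window in the table.

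In the Wnt pathway 28 of 39 tested genes were lower and 5 higher. The receptor Fzd8 stood at 2488, 1878 and 2121 in progenitor libraries against 255, 224 and 212 in neuron libraries (log2 change -3.22 ± 0.12, adjusted p = 1.04e-07), and the nuclear effectors Tcf7l1 (-4.44) and Tcf7l2 (-3.88) and the feedback gene Axin2 (-1.45) fell too. Ligands moved both ways: Wnt8b (-6.07) and Wnt3a (-5.96) fell, but Wnt7b stood at 2194, 2198 and 2127 in progenitor libraries against 11968, 9254 and 9643 in neuron libraries (log2 change 2.23 ± 0.18, adjusted p = 7.41e-06) and Wnt3 was also higher (2.35). The scaffold Apc of the destruction complex was higher as well (1.71). In the FGF and Hedgehog pathways 19 of 29 were lower. Gli3, the main transcriptional effector of Hedgehog in the cortex, stood at 7895, 5699 and 5748 in progenitor libraries against 363, 259 and 311 in neuron libraries (log2 change -4.37 ± 0.16, adjusted p = 9.11e-08), and the transducer Smo (-2.59) and the receptor Fgfr3 (-3.26) fell with it. The 7 that were higher included the ligands Fgf18 (3.60) and Fgf9 (2.53) and the ERK phosphatase Dusp6 (2.12). Fgf18 stood at 6, 5 and 7 in progenitor libraries against 92, 78 and 81 in neuron libraries, so the gain was from near absence to a low level.

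Apical polarity and adherens junction genes moved in both directions. 13 of 26 tested were lower and 6 higher (3 higher when libraries were scaled to the same sum), beside 26.4% lower and 27.6% higher over all genes tested, so the share that was higher was not above the background. The alpha-catenin Ctnna1 stood at 5559, 5857 and 5442 in progenitor libraries against 791, 717 and 712 in neuron libraries (log2 change -2.92 ± 0.09, adjusted p = 5.01e-08), while the neuronal alpha-catenin Ctnna2 stood at 889, 1247 and 956 in progenitor libraries against 7776, 9316 and 8530 in neuron libraries (log2 change 3.06 ± 0.15, adjusted p = 3.52e-07). One alpha-catenin thus fell while the other rose. Crb2, an apical membrane protein of radial glia, fell by 5.30 on the log2 scale, and the scaffold Magi1 by 2.53. The giant cadherin Fat1 fell (-3.92) and its relative Fat4 rose (1.74).

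**Figure D3:**
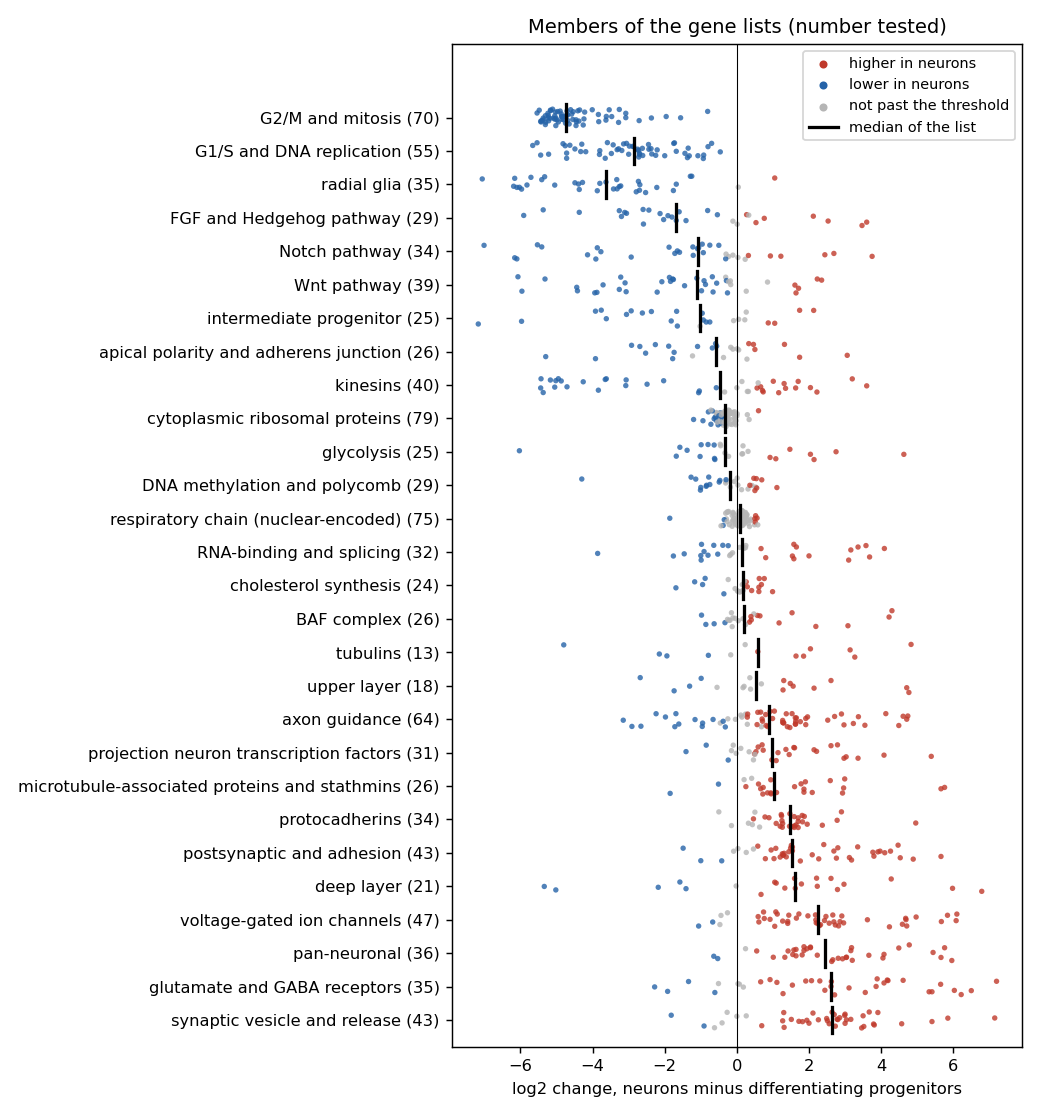
Log2 change, neurons minus differentiating progenitors, of each tested member of 28 gene lists (number tested in brackets), coloured by the limma call, with a black bar at each list's median. Mitosis genes centre on -4.73 and synaptic vesicle genes on 2.64, while ribosomal and respiratory chain genes lie close to 0.

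Neuronal genes were already present in differentiating progenitors and rose further. Of 36 tested pan-neuronal genes, 33 were higher, with a median log2 change of 2.43, and their summed normalised counts ranged over 133099 to 164619 in progenitor and 616582 to 665994 in neuron libraries. Celf4, a neuronal RNA-binding protein, stood at 503, 552 and 566 in progenitor libraries against 4857, 4835 and 4834 in neuron libraries (log2 change 3.16 ± 0.10, adjusted p = 6.22e-08). Smaller rises were those of Dpysl2 (0.55), Kif5c (1.01) and Basp1 (1.33). The RNA-binding proteins Elavl2 and Elavl4, which are also neuronal, were lower: Elavl2 stood at 6088, 8098 and 6912 in progenitor libraries against 4698, 4472 and 4304 in neuron libraries (log2 change -0.64 ± 0.18, adjusted p = 0.0147) and Elavl4 fell by 0.53. Elavl2 lost its call without replicate 2 of the progenitors (adjusted p = 0.0569), and Elavl4 without replicate 2 or 3 of either group (adjusted p between 0.0513 and 0.0939).

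Tubulin genes moved in both directions. Of 13 tested, 7 were higher (53.8%) and 4 lower (30.8%). All genes tested gave 27.6% and 26.4%, so the share that was lower was close to the background. Besides Tuba1a, Tubb2b and Tubb3, the rises were of Tubb4 (3.27), Tubb2a (3.14), Tubg2 (4.83) and Tubb5 (0.58). Tuba1c, in contrast, stood at 737, 424 and 503 in progenitor libraries against 28, 22 and 10 in neuron libraries (log2 change -4.80 ± 0.35, adjusted p = 3.69e-06), and Tuba1b (-1.94), Tubb6 (-2.15) and Tubb2c (-0.79) fell as well. These genes are close copies of each other, so reads shared between them make single values uncertain. Of 26 tested microtubule-associated proteins and stathmins, 22 were higher. Mapt, which encodes tau, rose by 5.66, and Mtap2, which encodes MAP2 of dendrites, by 1.86. Mtap7 (-1.85) and Tppp3 (-0.51) were lower, but the call of Tppp3 was lost without progenitor replicate 1 or 3 or neuron replicate 1 or 3 (adjusted p between 0.0535 and 0.0806), with only the 6 libraries fitted (adjusted p = 0.053) and with replicates 2 and 3 alone (adjusted p = 0.122).

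Kinesins, the microtubule motors, moved in both directions: 20 of 40 were lower (50%) and 14 higher (35%). All genes tested gave 26.4% lower and 27.6% higher. Those lower with the smallest adjusted p were the mitotic kinesins Kif20b, Kif18a, Kif4 and Kif14. Kif4, a chromosome-bound motor, stood at 2856, 2418 and 2905 in progenitor libraries against 122, 57 and 77 in neuron libraries (log2 change -5.05 ± 0.24, adjusted p = 2.93e-07). Those higher with the smallest adjusted p were Kifc3, Kif5a, Kif3c and Kif26a. Kif5a, the neuronal kinesin-1 heavy chain, stood at 1140, 1795 and 1605 in progenitor libraries against 12747, 14666 and 13659 in neuron libraries (log2 change 3.20 ± 0.15, adjusted p = 2.74e-07).

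Axon guidance genes were higher in 42 (65.6%) and lower in 14 (21.9%) of 64 tested genes, with a median of 0.89. The share that was lower was below the 26.4% of all genes tested. Among receptors, Robo1, a receptor for Slit proteins, stood at 809, 964 and 710 in progenitor libraries against 9112, 9046 and 7444 in neuron libraries (log2 change 3.37 ± 0.18, adjusted p = 5.34e-07), and the semaphorin receptor Plxnd1 at 175, 173 and 235 in progenitor libraries against 5054, 4547 and 5588 in neuron libraries (log2 change 4.71 ± 0.22, adjusted p = 2.55e-07). Among ligands the class 4 semaphorins Sema4g (2.52) and Sema4d (2.71) rose. The genes that fell with the smallest adjusted p were ligands: Sema5a stood at 8682, 8697 and 7351 in progenitor libraries against 1246, 825 and 777 in neuron libraries (log2 change -3.15 ± 0.18, adjusted p = 7.9e-07), and Sema5b (-1.98), Ntn4 (-2.66) and Slit2 (-1.61) fell with it. Of 21 genes for migration and the response to reelin, 13 were higher and 4 lower. The reelin receptor Vldlr stood at 411, 495 and 505 in progenitor libraries against 2625, 3012 and 2721 in neuron libraries (log2 change 2.57 ± 0.12, adjusted p = 2.88e-07), and its adaptor Dab1 rose by 2.36. The other reelin receptor, Lrp8, was lower (-0.46), as was Nde1, a dynein regulator of dividing progenitors (-4.06). The CDK5 activator Cdk5r1 (p35) rose by 2.49.

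Most synaptic genes were higher, at an age at which cortical neurons have few mature synapses. Of 43 tested genes for synaptic vesicles and release, 36 were higher and 2 lower (4 lower with a replicate block or with libraries scaled to the same sum, 5 with replicates 2 and 3 alone), with a median of 2.64. The vesicle protein Sv2a stood at 315, 356 and 360 in progenitor libraries against 4810, 5043 and 4658 in neuron libraries (log2 change 3.81 ± 0.09, adjusted p = 4.22e-08), and the calcium sensor Syt1 at 67, 77 and 61 in progenitor libraries against 2910, 3047 and 2834 in neuron libraries (log2 change 5.41 ± 0.16, adjusted p = 5.01e-08). Dnm3, a dynamin, rose by 5.85 and the active zone protein Erc2 by 2.85. Syt13 (-1.82) and Vamp1 (-0.91) were lower. Of 43 postsynaptic and adhesion genes, 36 were higher and 3 lower. The scaffold Shank1 stood at 476, 457 and 527 in progenitor libraries against 9165, 9525 and 9212 in neuron libraries (log2 change 4.26 ± 0.11, adjusted p = 4.22e-08), and the presynaptic adhesion receptor Nrxn2 (3.12) rose with it. Protocadherins, adhesion molecules that give neurons distinct surfaces, were higher in 28 of 34 tested genes and lower in none, with a median of 1.47 (1 lower with a replicate block, with only the 6 libraries or with libraries scaled to the same sum, and 2 with replicates 2 and 3 alone or without replicate 1 of the neurons), and single values of the clustered members share reads among close copies. At an unadjusted p under 0.05 in limma, 1 protocadherin was lower.

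Most receptor and channel genes were higher in neurons. Of 35 genes for glutamate and GABA receptors and their chloride cotransporters, 27 were higher and 4 lower, and summed normalised counts ranged over 14827 to 18247 in progenitor and 63431 to 71732 in neuron libraries. Gria1, an AMPA receptor subunit, stood at 40, 51 and 66 in progenitor libraries against 4406, 5022 and 4828 in neuron libraries (log2 change 6.50 ± 0.18, adjusted p = 4.7e-08). Gria2, the subunit that limits calcium entry through AMPA receptors, was already at 3653, 4327 and 4534 in progenitors and reached 20362, 20923 and 20018 (log2 change 2.30 ± 0.10, adjusted p = 1.94e-07). The GABA-A subunit Gabrb2 rose by 3.89, while Gabra4 (-1.92), Gabrg1 (-2.28), Gabrb1 (-1.34) and the kainate subunit Grik2 (-0.61) fell. Of 47 voltage-gated channel genes, 42 were higher, with a median of 2.24. The calcium channel Cacna1e stood at 113, 127 and 146 in progenitor libraries against 6370, 8225 and 7644 in neuron libraries (log2 change 5.84 ± 0.15, adjusted p = 4.22e-08), the potassium channel Kcna1 at 37, 27 and 34 in progenitor libraries against 2751, 2062 and 2125 in neuron libraries (log2 change 6.10 ± 0.26, adjusted p = 1.49e-07), and the sodium channel Scn2a1 rose by 4.71. Summed markers of interneurons and of Cajal-Retzius cells, given below, moved in the same direction as the neuronal lists, and their part in these rises was not tested.

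Transcription factors of projection neurons were higher in 21 of 31 tested genes and lower in 3. Mef2c, an activity-regulated factor, stood at 80, 78 and 70 in progenitor libraries against 2913, 3601 and 3199 in neuron libraries (log2 change 5.39 ± 0.15, adjusted p = 4.7e-08). Bhlhe22 stood at 426, 513 and 479 in progenitor libraries against 4947, 4954 and 4689 in neuron libraries (log2 change 3.36 ± 0.11, adjusted p = 6.06e-08), and Sox5, a factor of deep-layer neurons, at 2467, 2846 and 2733 in progenitor libraries against 18314, 18453 and 18688 in neuron libraries (log2 change 2.79 ± 0.12, adjusted p = 1.6e-07). Scrt2 and Foxp2 did not pass the test (0.50 and -0.02), although Scrt2 did with only the 6 libraries fitted (adjusted p = 0.0381) and Foxp2 was called lower with replicates 2 and 3 alone (adjusted p = 0.0273). Sox4, abundant in both populations, stood at 27454, 23747 and 22982 in progenitor libraries against 42772, 29309 and 30824 in neuron libraries and did not pass the test (log2 change 0.46 ± 0.20, adjusted p = 0.0811), but was called higher with a replicate block (adjusted p = 0.000375), with replicates 2 and 3 alone (adjusted p = 0.00388) and with only the 6 libraries fitted (adjusted p = 0.0499). Myt1 fell (-0.85) while its relative Myt1l rose (4.08).

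Layer markers held genes that rose and genes that fell. Of 21 deep-layer genes 15 were higher (71.4%) and 5 lower (23.8%), with a median of 1.60. Of 18 upper-layer genes 8 were higher (44.4%) and 4 lower (22.2%), with a median of 0.53. All genes tested gave 27.6% and 26.4%, so the shares that were lower were not above the background. The difference between the lists was not tested. Ntsr1, a receptor of layer 6 neurons, stood at 5, 14 and 13 in progenitor libraries against 691, 715 and 638 in neuron libraries (log2 change 5.98 ± 0.36, adjusted p = 9.84e-07), and the co-factor Ldb2 rose by 4.28. Otx1, which marks layer 5 but is also expressed in progenitors, fell at 4303, 3304 and 3818 in progenitor libraries against 984, 754 and 792 in neuron libraries (log2 change -2.18 ± 0.13, adjusted p = 1e-06). The POU factors Pou3f2 (-1.74) and Pou3f3 (-1.31) and the homeobox factor Cux1 (-0.99) fell, while Cux2 rose (1.30).

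Ratios between paralogs and functional partners shifted. In 17 of 18 gene pairs the ratio of the second to the first member, per kilobase of transcript, was higher in all neuron libraries than in all progenitor libraries, where 31.2% of single genes were higher without overlap. The pairs and their order were chosen with the direction known, so the count is a description. In 9 of the pairs the mean log2 ratio per kilobase changed sign. Which pairs did so depended on the division by length. Without it, the ratio of Ldhb to Ldha kept its sign (-1.13 to -0.20). Those of Ptbp2 to Ptbp1 (-0.24 to 1.02) and Slc2a3 to Slc2a1 (-2.16 to 0.90) changed sign only without it. Among chromatin remodellers, the actin-like subunit of the BAF complex, whose members are known to be swapped when progenitors become neurons, went from a log2 ratio of Actl6b to Actl6a of -3.24 in progenitors to 1.84 in neurons. The ratio of Dpf1 to Phf10 went from -0.94 to 2.28 and that of Ss18l1 to Ss18 from -0.42 to 2.09. Actl6b stood at 94, 203 and 210 in progenitor libraries against 2049, 3662 and 3537 in neuron libraries (log2 change 4.22 ± 0.40, adjusted p = 1.95e-05), while Actl6a fell by 0.86, a call lost without progenitor replicate 2 or 3 or neuron replicate 1 (adjusted p between 0.0973 and 0.1). Phf10 did not pass the test (95% interval of the log2 change -0.35 to 0.09) unless libraries were scaled to the same sum (adjusted p = 0.00866), and Dpf1 stood at 491, 568 and 658 in progenitor libraries against 4275, 5303 and 4931 in neuron libraries (log2 change 3.08 ± 0.13, adjusted p = 1.7e-07).

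Among intermediate filaments, Nes and Vim fell while Ina and Nefm rose. The log2 ratio of Ina to Nes went from -4.95 to 4.63, and that of Nefm to Vim rose to -2.29, so Vim stayed above Nefm per kilobase even in neurons. Ina, the neuronal filament alpha-internexin, stood at 212, 182 and 225 in progenitor libraries against 13371, 12834 and 12277 in neuron libraries (log2 change 5.96 ± 0.27, adjusted p = 2.44e-07), and Nes, the nestin of progenitors, at 21558, 8954 and 10564 in progenitor libraries against 1285, 968 and 858 in neuron libraries (log2 change -3.63 ± 0.31, adjusted p = 9.79e-06). Stathmins moved from Stmn1 towards Stmn2 (-4.25 to 0.57) with both higher in neurons (Stmn2 by 5.76 and Stmn1 by 0.94 on the log2 scale). The T-box pair Eomes and Tbr1, expressed one after the other in the glutamatergic lineage, went from -3.47 to 3.07.

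Ratios of isozymes of glucose metabolism shifted as well. The log2 ratio of Eno2, neuron-specific enolase, to Eno1 went from -4.17 to -0.03, that of the hexokinase Hk1 to Hk2 from -1.97 to 1.76, and that of the glucose transporter Slc2a3 to Slc2a1 from -3.51 to -0.45. Hk1 stood at 661, 775 and 617 in progenitor libraries against 2570, 3561 and 2996 in neuron libraries (log2 change 2.14 ± 0.14, adjusted p = 1.38e-06) and Hk2 at 2051, 1885 and 1675 in progenitor libraries against 658, 664 and 551 in neuron libraries (log2 change -1.58 ± 0.13, adjusted p = 6.67e-06). The lactate dehydrogenase ratio of Ldhb to Ldha moved less, from -0.20 to 0.73, and Ldhb itself passed the test only with a replicate block (adjusted p = 0.00822) or without progenitor replicate 2 (adjusted p = 0.0254). In the glycolysis list 7 of 25 genes were higher and 10 lower, where all genes gave 27.6% and 26.4%, so the share that was higher was close to that of all genes. The platelet-type phosphofructokinase Pfkp stood at 110, 107 and 161 in progenitor libraries against 2656, 3464 and 3190 in neuron libraries (log2 change 4.63 ± 0.18, adjusted p = 1.25e-07).

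Splicing regulators and polycomb genes gave further pairs. Ptbp1, a repressor of neuronal exons, stood at 8416, 7830 and 7664 in progenitor libraries against 3269, 2715 and 2721 in neuron libraries (log2 change -1.46 ± 0.09, adjusted p = 1.4e-06), and Ptbp2 at 6790.3 ± 854 and 5883 ± 559.5. Ptbp2 did not pass the test (95% interval -0.46 to 0.05) but was called lower with a replicate block (adjusted p = 0.0133), with replicates 2 and 3 alone (adjusted p = 0.0239), with libraries scaled to the same sum (adjusted p = 0.00789) and without progenitor replicate 1 (adjusted p = 0.0278), so the rise of their ratio from 0.26 to 1.52 came with a fall of Ptbp1. Nova1 and Nova2, neuronal splicing factors, formed the pair that went the other way, with the ratio of Nova1 to Nova2 going from -2.01 to -4.53 as Nova2 rose (1.54) and Nova1 fell (-0.98). The polycomb methyltransferase ratio of Ezh1 to Ezh2 went from -4.36 to -2.49, with Ezh2 still the higher per kilobase. Of 32 RNA-binding and splicing genes 13 were higher (40.6%) and 12 lower (37.5%), beside 27.6% and 26.4% of all genes tested. Their median of 0.14 became -0.08 when libraries were scaled to the same sum. Celf5, a neuronal splicing factor, stood at 842, 928 and 1037 in progenitor libraries against 9771, 9557 and 9338 in neuron libraries (log2 change 3.36 ± 0.10, adjusted p = 5.01e-08).

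The last pairs concern the chloride, glutamate and cyclin systems. The cotransporter Slc12a5 (KCC2), which extrudes chloride in mature neurons, stood at 174, 160 and 185 in progenitor libraries and between 242 and 407 in neuron libraries (log2 change 0.92 ± 0.21, adjusted p = 0.00502), and Slc12a2 (NKCC1), which imports it, did not pass the test (95% interval -0.28 to 0.35), with a direction that turned without neuron replicate 2 or 3 (-0.06 and -0.02) or with libraries scaled to the same sum (-0.18). Slc12a2 remained the higher per kilobase in all neuron libraries. The vesicular glutamate transporter ratio of Slc17a7 to Slc17a6 went from -2.25 to 1.16: Slc17a7 stood at 365, 501 and 512 in progenitor libraries against 2871, 3280 and 3356 in neuron libraries (log2 change 2.80 ± 0.19, adjusted p = 2.11e-06), whereas Slc17a6 stood at 2469, 3822 and 3409 in progenitor libraries against 2487, 1762 and 2040 in neuron libraries and was called lower with replicates 2 and 3 alone (adjusted p = 0.00231) or with only the 6 libraries fitted (adjusted p = 0.0316) but not in the fit of all libraries. The ratio of Ccnd2 to Ccnd1 rose from 2.90 to 4.95 as both fell.

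The BAF list as a whole moved in both directions. Of 26 tested genes, pair members included, 11 were higher (42.3%) and 4 lower (15.4%), beside 27.6% and 26.4% of all genes tested. The share that was lower was thus below the background. With a replicate block 7 were lower, where all genes gave 35.5%. With libraries scaled to the same sum 9 were lower, where 5588 of all 15828 genes were, and the median of 0.20 became -0.01. The largest rise of the list was of Dpf3, a relative of Dpf1 (log2 change 4.30 ± 0.88, adjusted p = 0.00263). The ATPase Smarca2 stood at 1107, 1630 and 1508 in progenitor libraries against 5105, 7449 and 6748 in neuron libraries (log2 change 2.19 ± 0.18, adjusted p = 6.9e-06), while the core subunit Arid1a did not pass the test (95% interval -0.29 to 0.19). In the list of DNA methylation and polycomb genes 12 of 29 were lower (41.4%) and 7 higher (24.1%), or 11 higher with a replicate block. All genes tested gave 26.4% and 27.6%, so the share that was higher was not above the background. Uhrf1, which recruits maintenance methylation to replicated DNA, stood at 4755, 4106 and 4255 in progenitor libraries against 268, 210 and 191 in neuron libraries (log2 change -4.30 ± 0.14, adjusted p = 5.41e-08), and the methyltransferase Dnmt3a fell by 1.01. Suz12, a core subunit of polycomb complex PRC2, fell by 1.14. The methylcytosine oxidases Tet1, Tet2 and Tet3 did not pass the test, with 95% intervals of the log2 change of -0.45 to 0.10, -0.22 to 0.29 and -0.28 to 0.29. Tet1 was called lower with libraries scaled to the same sum (adjusted p = 0.0209).

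Housekeeping groups moved little, and their counts depended on the fit. Of 79 cytoplasmic ribosomal protein genes 21 were lower (26.6%) and 1 higher (1.27%), with a median of -0.33. All genes tested gave 26.4% lower and 27.6% higher. The share that was lower was thus close to the background, and the share that was higher far below it. With a replicate block 50 were lower and 3 higher, where all genes gave 35.5% and 35.8%. With libraries scaled to the same sum 37 were lower, where 5588 of all 15828 genes were. Without progenitor replicate 1 there were 13 lower, without neuron replicate 3 there were 10, and without neuron replicate 2, or with replicates 2 and 3 alone, there were 2 higher. Rpl39 stood at 2677, 2696 and 2504 in progenitor libraries against 1600, 1814 and 1781 in neuron libraries (log2 change -0.60 ± 0.09, adjusted p = 0.000449), and reads shared with processed copies make single values of this family uncertain. Of 75 nuclear-encoded respiratory chain genes 4 were higher (5.33%) and 3 lower (4%), both shares far below those of all genes tested. With a replicate block 24 were higher and 11 lower. With replicates 2 and 3 alone 10 were higher, and without progenitor replicate 2 there were 7. Their median of 0.10 became -0.11 when libraries were scaled to the same sum, with 1 higher and 14 lower. Ndufb9, a subunit of complex I, stood at 1001, 1091 and 937 in progenitor libraries against 1487, 1585 and 1382 in neuron libraries (log2 change 0.56 ± 0.13, adjusted p = 0.00449). Of 24 genes for cholesterol synthesis and its control 9 were higher (37.5%) and 5 lower (20.8%), beside 27.6% and 26.4% of all genes tested. When libraries were scaled to the same sum the median of 0.16 became -0.05, with 4 higher, where 3383 of all 15828 genes were. Fdft1, which encodes squalene synthase, rose (log2 change 0.99 ± 0.12, adjusted p = 0.00012), and Srebf1, a lipid regulator, fell (log2 change -1.69 ± 0.11, adjusted p = 1.61e-06).

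Markers of other neuron types moved with the comparison. Of 21 tested interneuron genes 14 were higher in neurons and 3 lower, and their sums ranged over 3025 to 6755 in progenitor and 15388 to 17112 in neuron libraries. Lhx6 stood at 4, 12 and 12 in progenitor libraries against 1449, 1603 and 1881 in neuron libraries (log2 change 7.43 ± 0.55, adjusted p = 3.71e-06), Sst at 2, 1 and 1 in progenitor libraries against 535, 413 and 691 in neuron libraries, and Gad1, which makes GABA, at 11, 19 and 14 in progenitor libraries against 1225, 1407 and 1473 in neuron libraries (log2 change 6.48 ± 0.51, adjusted p = 5.57e-06). These 3 genes stood at 19 or less in the progenitor libraries and were present in each neuron library, although the ganglionic eminences had been removed. Dlx1 and Dlx2, on the other hand, were already present in progenitors, at 1568, 793 and 234 and 921, 391 and 79, most in replicate 1, and did not pass the test unless a replicate block was used (adjusted p = 0.0435 and 0.0232). Sp8 (-1.69) and Gsx2 (-3.19) were among those lower. Gsx2 lost the call without progenitor replicate 1 or 2 or neuron replicate 2 or 3, and 1 gene of the list was lower without progenitor replicate 1, neuron replicate 2 or neuron replicate 3.

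Of 15 tested Cajal-Retzius genes 11 were higher and 3 lower, and their sums ranged over 7168 to 8065 in progenitor and 27759 to 31709 in neuron libraries. Reln, which encodes the reelin secreted by these cells, stood at 534, 859 and 649 in progenitor libraries against 15817, 18933 and 16829 in neuron libraries (log2 change 4.68 ± 0.21, adjusted p = 2.15e-07), Calb2 at 5, 8 and 4 in progenitor libraries against 145, 218 and 186 in neuron libraries, and Trp73 at 290, 255 and 237 in progenitor libraries against 986, 884 and 839 in neuron libraries (log2 change 1.79 ± 0.34, adjusted p = 0.00168). Reln made up most of the sum in neuron libraries and is also expressed by interneurons. In progenitor libraries the largest single value of the list was that of Zic1, at 2513, 2346 and 2197. Zic1 (-1.40) and Ebf2 (-1.41) were lower.

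In the lists of microglia, vessels, meninges, oligodendrocyte lineage and red cells, members were called lower in neurons or did not pass the test. Of all genes tested, 26.4% were lower, or 35.5% with a replicate block. Of 11 tested microglia genes 9 were lower (81.8%) and 0 higher. There were 14 lower with no filter on low values and 2 with a filter of 50. Sums of the list were 412 to 490 in progenitor and 220 to 275 in neuron libraries. Csf1r, the receptor on which microglia depend, stood at 67, 57 and 56 in progenitor libraries against 25, 26 and 22 in neuron libraries, and Aif1 was at 2 or less in each library of both groups. Of 20 vessel genes 7 were lower (35%, and 11 genes with a replicate block) and 0 higher (2 with replicates 2 and 3 alone). Their sums were 2640 to 3028 in progenitor and 1400 to 1662 in neuron libraries. Slc2a1, Ramp2 and Col4a1, which are not restricted to vessels, held most of that sum, and the defining marker Cldn5 stood at 6, 7 and 9 in progenitor libraries against 0, 2 and 5 in neuron libraries (log2 change -1.65 ± 0.66, adjusted p = 0.0621). No compared library held 10 of Cldn5, so it entered the test through the proliferating progenitors. Cldn5 was called lower with a replicate block (adjusted p = 0.00649), with libraries scaled to the same sum (adjusted p = 0.0411) and without neuron replicate 3 (adjusted p = 0.0184), Col4a1 with a replicate block (adjusted p = 0.0147) and Ramp2 with libraries scaled to the same sum (adjusted p = 0.0168). Of 8 meningeal genes 5 were lower (62.5%, and 3 genes with a pseudocount of 10), and Fn1 held most of their sum. Of 8 genes of the oligodendrocyte lineage 4 were lower (50%). Among them was Olig2, at 153, 112 and 77 in progenitor libraries against 6, 1 and 3 in neuron libraries. Sox10 stood at 4 or less in each library. Of 12 red cell genes 2 were lower (16.7%), a share below that of all genes tested. With a replicate block 7 were lower, and with replicates 2 and 3 alone 5. Without replicate 1 of the neurons there were 4, and with a pseudocount of 10 there was 1. The red cell sum was 2114 in replicate 1 of the progenitors and between 202 and 294 in the other 5 libraries, all far below the 103775 to 259218 of proliferating progenitors. At an unadjusted p under 0.05, 0 of the members of these 5 lists were higher in neurons.

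**Figure D4:**
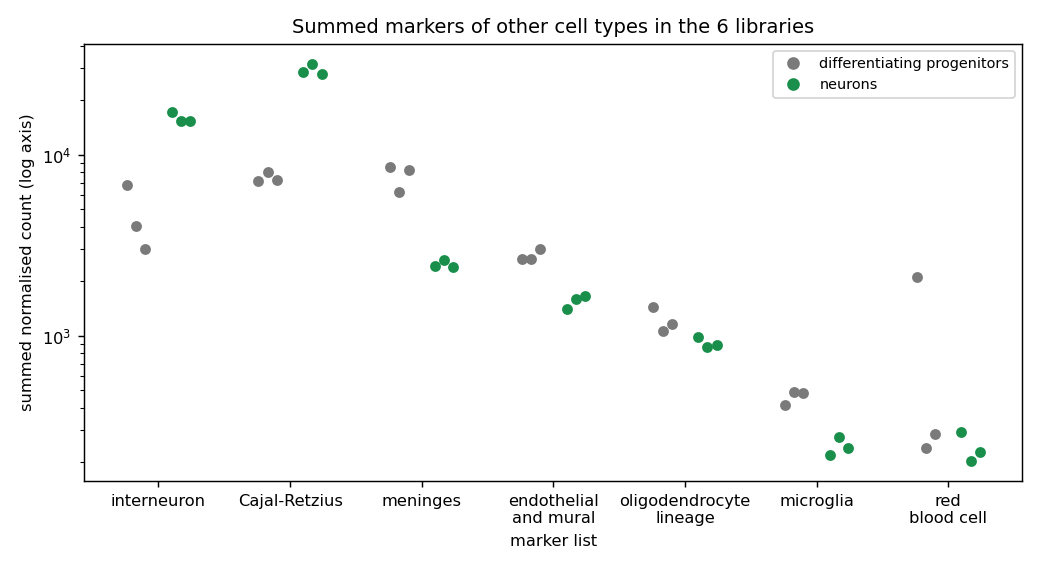
Summed normalised counts (log axis) of 7 marker lists of other cell types in each library of differentiating progenitors (grey) and neurons (green). Interneuron and Cajal-Retzius sums are higher in all neuron libraries, the sums of meninges, vessels, oligodendrocyte lineage and microglia are lower, and the red cell sum overlaps between groups.

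Among 799 long non-coding RNAs tested, 133 were higher and 220 lower in neurons, 44.2% in all, beside 58.9% of 13387 protein-coding genes, and the shares were not tested against each other. In a separate list of 18 long non-coding RNAs, Meg3, an imprinted transcript, stood at 2145, 2086 and 2709 in progenitor libraries against 13617, 14410 and 14399 in neuron libraries (log2 change 2.62 ± 0.18, adjusted p = 2.22e-06). Snhg11, from the same list but not in the ranking by gene class that follows, stood at 21, 26 and 33 in progenitor libraries against 609, 623 and 700 in neuron libraries (log2 change 4.56 ± 0.22, adjusted p = 2.73e-07). The ranking took long non-coding RNAs with a higher mean of at least 50 and left out predicted genes without a name. Its 5 largest rises were of 2900079G21Rik (5.50), 4930474H06Rik (3.67) and 2810032G03Rik (3.19), and of Dlx1as (3.76) and Dlx6os1 (3.49), antisense or opposite-strand transcripts at interneuron genes. Whether the counting used strand is not given, so reads of Dlx1as and Dlx1 cannot be told apart. Dlx6os1 lost its call without progenitor replicate 2 or 3 or without neuron replicate 1 or 2 (adjusted p between 0.0549 and 0.0928). The largest falls were of RP24-273I13.1, at 439, 150 and 221 in progenitor libraries against 14, 6 and 5 in neuron libraries (log2 change -4.84 ± 0.47, adjusted p = 2.22e-05), and of 4930558J18Rik (-4.14), 0610009E02Rik (-3.99), 2610035F20Rik (-3.91) and 3010003L10Rik (-3.84). Rmst, a neural transcript, and the imprinted H19 were lower too (-2.23 and -2.92). Tug1 (-0.06) and 1700020I14Rik (0.07) did not pass the test.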

How the data were processed

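Poly-A RNA of 9 libraries, 3 each from proliferating progenitors, differentiating progenitors and neurons, was analysed from a single deposited table of all genes. Its values are normalised read counts written as whole numbers by the authors, per the file headers, and are treated as a score rather than as raw counts, since the depth of each library cannot be read from them. Per the submitters' processing notes the tools were CASAVA 1.8.0, BWA, bedtools 2.11 and DESeq 1.8.1 on mouse build mm9, and per the file headers the genes are those of Ensembl version 61. Which tool did which step, and whether counting used strand, was not given in the sources used here. Column names matched the sample labels for every library, and 0 columns of values were left unmapped. The 2 further deposited files, with the authors' own comparisons, were not used here.

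A gene entered the test when 3 or more of the 9 libraries, proliferating progenitors included, held a value of 10 or above. The test was limma 3.58.1 (R 4.3.3, with intensity trend) on log2(value + 1), fitted once to the 9 libraries (3 group means, leaving 6 residual degrees of freedom). Calls are at a Benjamini-Hochberg adjusted p of 0.05 over all genes tested. The scripts were tested on simulated data. Tables and figures were made with numpy 2.4.6, pandas 2.3.3 and matplotlib 3.10.9 under Python 3.11.15. Lengths in bases came from the same deposited table. Gene classes came from GENCODE M21, to which 19890 genes matched by identifier and 563 by symbol, while 757 did not match.

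Libraries with the same replicate number deviated together: the correlation of their deviations from the group means lay between 0.507 and 0.767 for the 9 pairs. Replicates 2 and 3 of different groups also correlated, at 0.272 to 0.428. Replicate 1 stood apart, at -0.64 to -0.545 with replicates 2 and 3 of other groups. The replicate numbers come from the sample labels, and the replicate block (4 residual degrees of freedom) was fitted as an alternative.

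The comparison's members and the 43 gene lists were chosen with earlier results of these data known. Genes are named by this rule: the 2 reporters, the 10 largest rises and falls without overlap and with a mean of at least 200, the 6 largest absolute differences per direction, 5 called long non-coding RNAs each way whose higher mean reached 50, genes switched on or off with a mean of at least 200, up to 4 called members per list and direction with the smallest adjusted p, all pair members, and members of the lists of other cells. Other genes named are list members chosen after their values were seen, and some genes that the rule would name are not reported here. Alternatives were the block, the 6 compared libraries alone, replicates 2 and 3 alone, each library left out, pseudocounts of 0.5 and 10, no filter or a minimum of 50, libraries scaled to the same sum or by median of ratios, no trend, ratios without division by length, and other limits for genes switched on or off.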

Additional observations from a re-analysis of the deposited data

How the results depend on the processing

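The count of changed genes (8551) stayed within 1.5 times under each alternative run: 11281 with a replicate block, 8362 with only the 6 libraries, 9560 with replicates 2 and 3 alone, 8528 and 8560 with pseudocounts of 0.5 and 10, 8922 without a filter, 7484 with a minimum of 50, 8971 with libraries scaled to the same sum, 8551 by median of ratios, 8406 without trend and 7604 to 8167 with 1 library left out. The replicate block added calls for 7 of the 477 genes that the rule or the text names and ended or turned none. These 7 genes, and the list counts that it moved by over 1.5 times, are given with their results, and it changed no other of their calls. Genes switched on numbered 170 and 147, and off 218 and 225, under the other limits.

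Directions turned only for genes that had not passed the test. With libraries scaled to the same sum the log2 changes were -0.15 for 1700020I14Rik, -0.18 for Adam10, -0.16 for Cdkn1c, -0.17 for Pla2g7, -0.16 for Rb1, -0.18 for Slc12a2, -0.18 for Tet2 and -0.21 for Tet3. With replicates 2 and 3 alone they were -0.02 for Cdkn1c, -0.24 for Pla2g7, -0.06 for Tet2 and -0.00 for Tet3. With 1 library left out they ranged from -0.04 to 0.15 for 1700020I14Rik, -0.14 to 0.02 for Arid1a, -0.04 to 0.17 for Cdkn1c, -0.21 to 0.13 for Foxp2, -0.26 to 0.07 for Nhlh1, -0.19 to 0.16 for Pla2g7, -0.11 to 0.20 for Rb1, -0.06 to 0.18 for Slc12a2, -0.07 to 0.09 for Tet2, -0.09 to 0.10 for Tet3 and -0.20 to 0.03 for Tug1. The cause was not tested.

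Over all alternatives and these 477 genes, 89 values lost a call, 24 gained one and 35 turned direction, while 7455 did neither. The files do not give raw depth, so differences among genes near the minimum of 10 have an unknown counting error, and with 3 pools per group the tests measure the spread between pools. Of the whole numbers from 1 to 20, 4 never occurred as values in progenitor replicate 1 and 3 in neuron replicate 1. In replicates 2 and 3 of both groups 0 were missing. Whether raw depth differed between replicates was not tested.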

Other observations

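Further gene groups were counted beside all genes tested, of which 27.6% were higher and 26.4% lower. Growth factor and neurotrophin receptors were higher in 12 (57.1%) and lower in 6 (28.6%) of 21 tested genes, with a median log2 change of 1.07. Their share that was lower was close to that of all genes. The neurotrophin receptor Ngfr (log2 change 6.30 ± 0.41, adjusted p = 1.77e-06) and the neuregulin receptor Erbb4 (log2 change 5.20 ± 0.33, adjusted p = 1.35e-06) were higher by limma, and Erbb2, the partner of other ErbB receptors, was lower (log2 change -4.72 ± 0.19, adjusted p = 1.29e-07). Rab GTPases, which direct vesicle traffic, were higher in 24 (50%) and lower in 6 (12.5%) of 48, with a median of 0.34. Immediate early genes, whose transcripts respond to stimulation and to cell handling, were higher in 6 (35.3%) and lower in 7 (41.2%) of 17.

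Of 16 mitochondrially encoded genes 5 were higher by limma (31.2%), close to the 27.6% of all genes tested, and 0 were lower. With a replicate block 9 were higher and 1 lower, and with libraries scaled to the same sum 3 were higher. Of 18 replication-dependent histone genes, whose main transcripts lack a poly-A tail and are poorly captured by poly-A selection, 5 were higher (27.8%) and 9 lower (50%). The share that was higher was close to the 27.6% of all genes tested. Without a filter on low values 23 were lower, and with a minimum of 50 there were 3 in each direction. Only 3 histone genes were higher with libraries scaled to the same sum or without progenitor replicate 1, neuron replicate 2 or neuron replicate 3.

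Called genes were unevenly spread over transcript length. Among the 1583 shortest of the tested genes, up to 980 bases, 8.4% were higher in neurons and 12.8% lower. Among the 1583 longest, from 7953 bases, 41.3% were higher and 26.3% lower, and the median log2 change went from -0.17 to 0.16. Longer transcripts also collect more reads, and the part of this in the shares was not tested.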
